A study of Rattus norvegicus with 6 samples.

Results

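The 4 miRNAs described here are rno-miR-451-5p, rno-miR-144-3p, rno-miR-144-5p and rno-miR-486, picked by name as miRNAs of red blood cells from the 763 mature miRNAs of the deposited table. miRNAs are short RNAs that pair with messenger RNAs and repress them. They were sequenced in exosomes, small vesicles released by cells, isolated from serum of Sprague-Dawley rats (males of 9 to 10 weeks, 250 to 280 g). In the IPC-exo group (ischemic preconditioning, 3 samples) the left anterior descending coronary artery was tied and released in 3 cycles under pentobarbital, each made of 5 min without flow and 5 min of restored flow, before blood was drawn from the left ventricle. In the Con-exo group (3 samples) blood was drawn the same way with no preconditioning, and no sham surgery is mentioned for this group. It is not stated that replicates are different rats, so each p-value refers only to the scatter among these samples, some or all of which may be technical.

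As background, miR-451 and miR-144 are cut from one primary transcript that the erythroid transcription factor GATA1 switches on, and miR-451 is among the most abundant miRNAs of mature red cells. miR-451 is unusual in that its hairpin is too short for Dicer and is sliced by Argonaute 2 instead, so that the mature strand runs from the 5′ stem into the loop. miR-486 lies in an intron of Ank1, the gene of a red-cell membrane skeleton protein, and is also made in heart and skeletal muscle. Because red cells that break during blood collection release these miRNAs, the ratio of miR-451 to miR-23a-3p is used as a gauge of red-cell lysis in serum and plasma.

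The sequences of 3 of the 4 members are in the RefSeq table (build GRCr8), and the hairpins Mir144 (chr10:63459397-63459479, plus strand) and Mir451a (chr10:63459569-63459640, plus strand) lie 89 bases apart there. They are shown because the arm ratios below concern products of these hairpins. In the mature sequences the capitals mark the seed, bases 2 to 8, which directs target pairing.
miR-451-5p: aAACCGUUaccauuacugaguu
miR-144-3p: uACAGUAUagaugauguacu
miR-144-5p: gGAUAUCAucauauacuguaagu
In the hairpins the capitals mark the members' mature arms.
Mir451a: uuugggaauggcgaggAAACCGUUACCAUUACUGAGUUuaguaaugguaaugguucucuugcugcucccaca
Mir144: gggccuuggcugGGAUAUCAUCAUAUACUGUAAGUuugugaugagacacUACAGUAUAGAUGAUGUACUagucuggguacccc

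By its sequence miR-451-5p lies at positions 17 to 38 of its 72-base hairpin. RNAfold gave 17 of its 22 bases as paired and 4 in the loop at positions 35 to 38. Neither miR-144 arm had a base in the loop of its hairpin. The 3 seeds differ from each other, and no other miRNA of the table with a RefSeq sequence shares bases 2 to 8 with any of them. miR-101a-3p and miR-101b-3p, named here for their sequence, share bases 2 to 7 with miR-144-3p and differ from it at base 8. RefSeq gave a sequence for 686 of the 763 miRNAs, and miR-486 is named only.

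The libraries differed in ways that bear on these miRNAs. Whole counts recovered from the deposited values (a step explained with the processing) summed to 762927, 661405 and 319285 in IPC-exo replicates 1, 2 and 3, against 111048, 152343 and 129728 in Con-exo replicates 1, 2 and 3. Con-exo replicate 2 ranked the 226 tested miRNAs more like IPC-exo replicate 3 (Spearman 0.93 over miRNAs, which are not independent) than like Con-exo replicates 1 and 3 (0.77 and 0.69). Each result is therefore also given without that library where it matters. Fold changes below come from limma on log2(normalised count + 1), fitted over all 226 miRNAs that passed the abundance filter, all 4 members among them. Adjusted p-values are Benjamini-Hochberg values over the 226.

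None of the 4 members passed an adjusted p of 0.05, and the same test called 0 of the 226 miRNAs (0%). Before adjustment, 24 of the 226 (10.6%) had a limma p under 0.05, 20 of them higher (8.85%) and 4 lower (1.77%), and 0 of the 4 members was among these. limma-voom, run on recovered counts, likewise gave 0 calls after adjustment and 19 higher and 4 lower before it. Without Con-exo replicate 2 limma called 38 miRNAs after adjustment, 29 higher and 9 lower, with 0 members among them. By normalised counts the groups did not overlap for 31 of the 226 miRNAs (13.7%), with IPC-exo wholly below for 3 (1.33%), and they overlapped for each of the 4 members. In every library the order of abundance was miR-486, miR-451-5p, miR-144-3p, miR-144-5p. miR-486 stood 2.26 to 8.90 times above miR-451-5p over the 6 libraries, and miR-144-3p 2.77 to 40.3 times above miR-144-5p, where the 40.3 of Con-exo replicate 1 rests on a miR-144-5p count of 0. The gap between miR-451-5p and miR-144-3p, products of the same transcript, was the widest, from 10.1 to 148 times. The 4 miRNAs together took 4.92%, 5.78% and 5.25% of all counts in IPC-exo replicates 1, 2 and 3, against 4.09%, 5.04% and 7.77% in Con-exo replicates 1, 2 and 3. The means were 5.32% ± 0.435 in IPC-exo and 5.63% ± 1.91 in Con-exo (SD, n = 3 each), and the difference was within the spread (two-sided exact permutation p = 0.9). With the 10 most abundant other miRNAs left out of the total, the difference was -3.12 percentage points (two-sided exact permutation p = 0.5). With the full total it had the opposite sign without Con-exo replicate 3, the library with the highest share, at 0.749 percentage points.

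**Figure D1:**
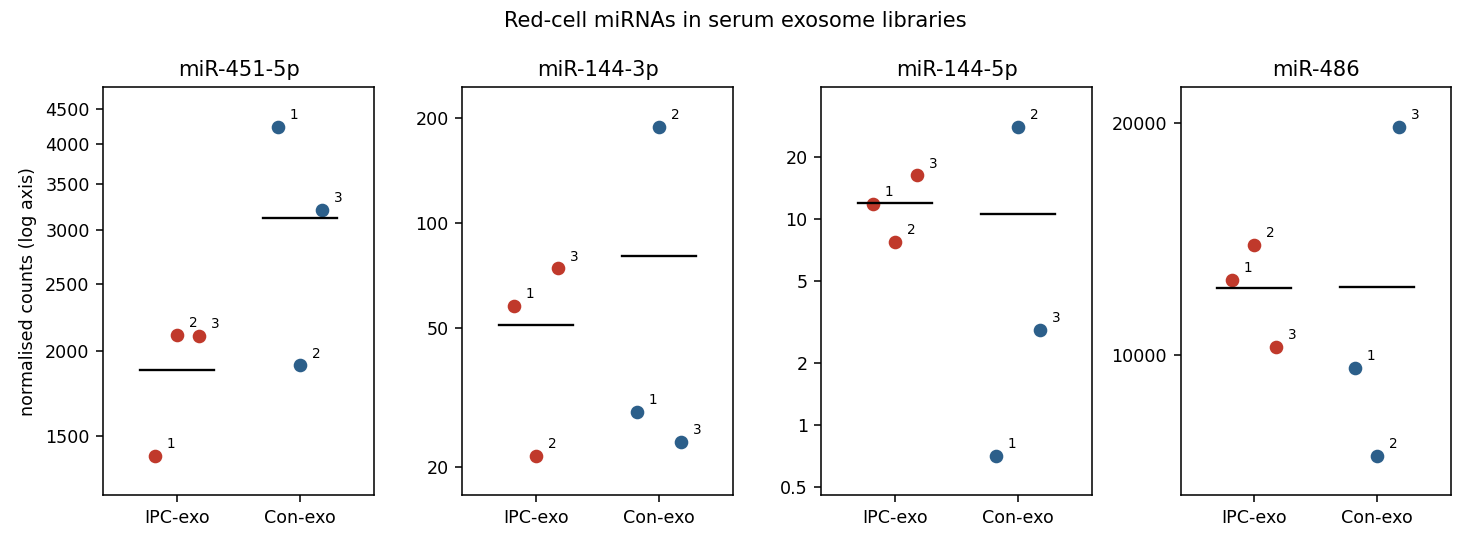
Normalised counts (log axis, a separate scale for each miRNA) of the 4 red-cell miRNAs in each library, IPC-exo in red and Con-exo in blue, with replicate numbers beside the points and the mean of each group as a bar. For miR-451-5p the IPC-exo libraries lie at 1405 to 2107 and Con-exo replicate 2, at 1903, lies among them; for miR-144-3p and miR-144-5p Con-exo replicate 2 is the highest of all.

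miR-451-5p, whose known roles include protecting red-cell precursors from oxidative stress in mice, was at 1405, 2107 and 2103 normalised counts in IPC-exo replicates 1, 2 and 3, against 4245, 1903 and 3208 in Con-exo replicates 1, 2 and 3. Con-exo replicate 2 lay inside the IPC-exo range and the other controls above it. The means were 1872 ± 404 in IPC-exo and 3119 ± 1173 in Con-exo (SD, n = 3 each). On the log2 scale the fold change was -0.69 (SE 0.60, 95% interval -2.01 to 0.64; adjusted p = 0.664 by limma, 0.279 before adjustment). The interval spans 0, so a lower level is not shown. In serum, the number of vesicles of red-cell origin, the amount of the miRNA per vesicle and red-cell lysis cannot be told apart. Because the median log2 fold change of all 226 miRNAs was 0.38, the fold change of miR-451-5p was -1.07 relative to that median. Its sign was negative under each alternative tried, and it was nearest to 0 without Con-exo replicate 1, at -0.43.

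As a share of all recovered counts in a library, miR-451-5p took 0.494%, 0.760% and 0.889% in IPC-exo replicates 1, 2 and 3, against 1.25%, 1.01% and 1.08% in Con-exo replicates 1, 2 and 3. On this scale each IPC-exo library was below each control, at 0.714% ± 0.201 in IPC-exo and 1.11% ± 0.124 in Con-exo (SD, n = 3 each). A two-sided exact permutation test gave p = 0.1, below which it cannot go with 3 libraries a group. Of the 226 tested miRNAs 7 (3.1%) had shares split this way and 19 (8.41%) the opposite way. The scales part at Con-exo replicate 2, whose scaling factor in the deposited normalisation was 1.41, against 0.783 and 0.898 in the other controls. miR-451-5p was the 28th, 24th and 24th most abundant miRNA in IPC-exo replicates 1, 2 and 3 and the 15th, 19th and 17th in Con-exo replicates 1, 2 and 3. The opposite arm, miR-451-3p, which was named after its values were seen, had 9 counts in all IPC-exo libraries and 1 in all controls, beside 11633 and 4332 of miR-451-5p.

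miR-144-3p, a repressor of the oxidative stress regulator NRF2 in human erythroid cells, was at 57.8, 21.5 and 74.2 normalised counts in IPC-exo replicates 1, 2 and 3, against 28.7, 189 and 23.6 in Con-exo replicates 1, 2 and 3. The control values thus enclose most of the IPC-exo range, and 1 control stands far above the other 2. These rest on 155, 52 and 100 recovered counts in IPC-exo and on 9, 153 and 10 in Con-exo. The log2 fold change was -0.16 (SE 0.90, 95% interval -2.14 to 1.82; limma, adjusted p = 0.956). It was 0.78 without Con-exo replicate 2 and 0.36 without IPC-exo replicate 2, so no direction can be given.

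miR-144-5p, the arm opposite to miR-144-3p, was at 11.9, 7.76 and 16.4 normalised counts in IPC-exo replicates 1, 2 and 3, against 0.711, 28.2 and 2.91 in Con-exo replicates 1, 2 and 3. The control values lie on both sides of all IPC-exo values. Behind them are 32, 19 and 22 recovered counts in IPC-exo and 0, 23 and 1 in Con-exo, so the 0.711 of Con-exo replicate 1 is a value that the deposited adjustment gave to a count of 0. That 0 allows a share of up to 0.00270% of the library (3 counts; exact 95% upper limit 0.00332%, counting error only). The shares in IPC-exo replicates 1, 2 and 3 were 0.00419%, 0.00287% and 0.00689%, with exact 95% intervals from 0.00287%, 0.00173% and 0.00432% upward. At this depth Con-exo replicate 1 could not be told apart from IPC-exo replicates 1 and 2. The log2 fold change of 1.11 (SE 1.08, 95% interval -1.26 to 3.48; limma, adjusted p = 0.689) was 0.23 without Con-exo replicate 1 and 2.27 without Con-exo replicate 2, with an adjusted p = 0.0574 in the last. Both miR-144 arms were highest in Con-exo replicate 2. As a share of counts, miR-144-3p was there 12.7 times the mean of the other controls, and the 23 counts of miR-144-5p stood against 0 and 1 in the others, too few for a fold. In the same library miR-451-5p and miR-486 were at 0.865 and 0.824 times the mean of the other controls.

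miR-486, which in muscle represses the transcription factor Foxo1, was the most abundant member, the 5th to 9th most abundant miRNA of each library. It was at 12504, 13889 and 10229 normalised counts in IPC-exo replicates 1, 2 and 3, against 9604, 7388 and 19786 in Con-exo replicates 1, 2 and 3. The controls enclosed the IPC-exo values, with Con-exo replicate 3 as the highest of the 6 libraries. The means were 12208 ± 1848 in IPC-exo and 12259 ± 6612 in Con-exo (SD, n = 3 each). The log2 fold change was 0.11 (SE 0.59, 95% interval -1.17 to 1.40; limma, adjusted p = 0.956), and relative to the median of all 226 miRNAs it was -0.27. The sign turned under median-of-ratios scaling (-0.14) and without Con-exo replicate 2 (-0.19), and the value was 0.52 without Con-exo replicate 3. The interval still admits changes of over 1 log2 unit either way, so the data do not show that its level was the same.

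The members were also compared as 6 ratios of normalised counts within a library, with p-values adjusted over the 6. Scaling a whole library leaves such a ratio as it is, but the deposited adjustment moves low counts unevenly, which touches the ratio of the miR-144 arms. The ratio of miR-486 to miR-451-5p was 8.90, 6.59 and 4.86 in IPC-exo replicates 1, 2 and 3, against 2.26, 3.88 and 6.17 in Con-exo replicates 1, 2 and 3. The groups overlap, since Con-exo replicate 3 lies above IPC-exo replicate 3. The geometric means were 6.58 in IPC-exo and 3.78 in Con-exo, a difference of 0.80 on the log2 scale (two-sided exact permutation p = 0.2, adjusted p = 0.24). Without Con-exo replicate 3 it was 1.15, and without Con-exo replicate 1 it was 0.43.

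Ratios among products of the shared transcript follow. miR-144-3p to miR-451-5p was 0.0411, 0.0102 and 0.0353 in IPC-exo replicates 1, 2 and 3, against 0.00675, 0.0993 and 0.00735 in Con-exo replicates 1, 2 and 3. The highest and the lowest of the 6 values were both controls, and the groups did not differ beyond their spread (log2 difference 0.53, two-sided exact permutation p = 0.8, adjusted p = 0.8; 1.80 without Con-exo replicate 2, -0.14 without Con-exo replicate 1 and -0.076 without Con-exo replicate 3). miR-144-5p to miR-144-3p was 0.205, 0.361 and 0.221 in IPC-exo replicates 1, 2 and 3, against 0.0248, 0.149 and 0.123 in Con-exo replicates 1, 2 and 3. Each IPC-exo value was above each control (two-sided exact permutation p = 0.1, adjusted p = 0.15). The lowest of these rests on a count of 0, and the log2 difference of 1.72 was 1.31 from recovered counts (0.5 added to each) and 0.71 with 5 added to both values.

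**Figure D2:**
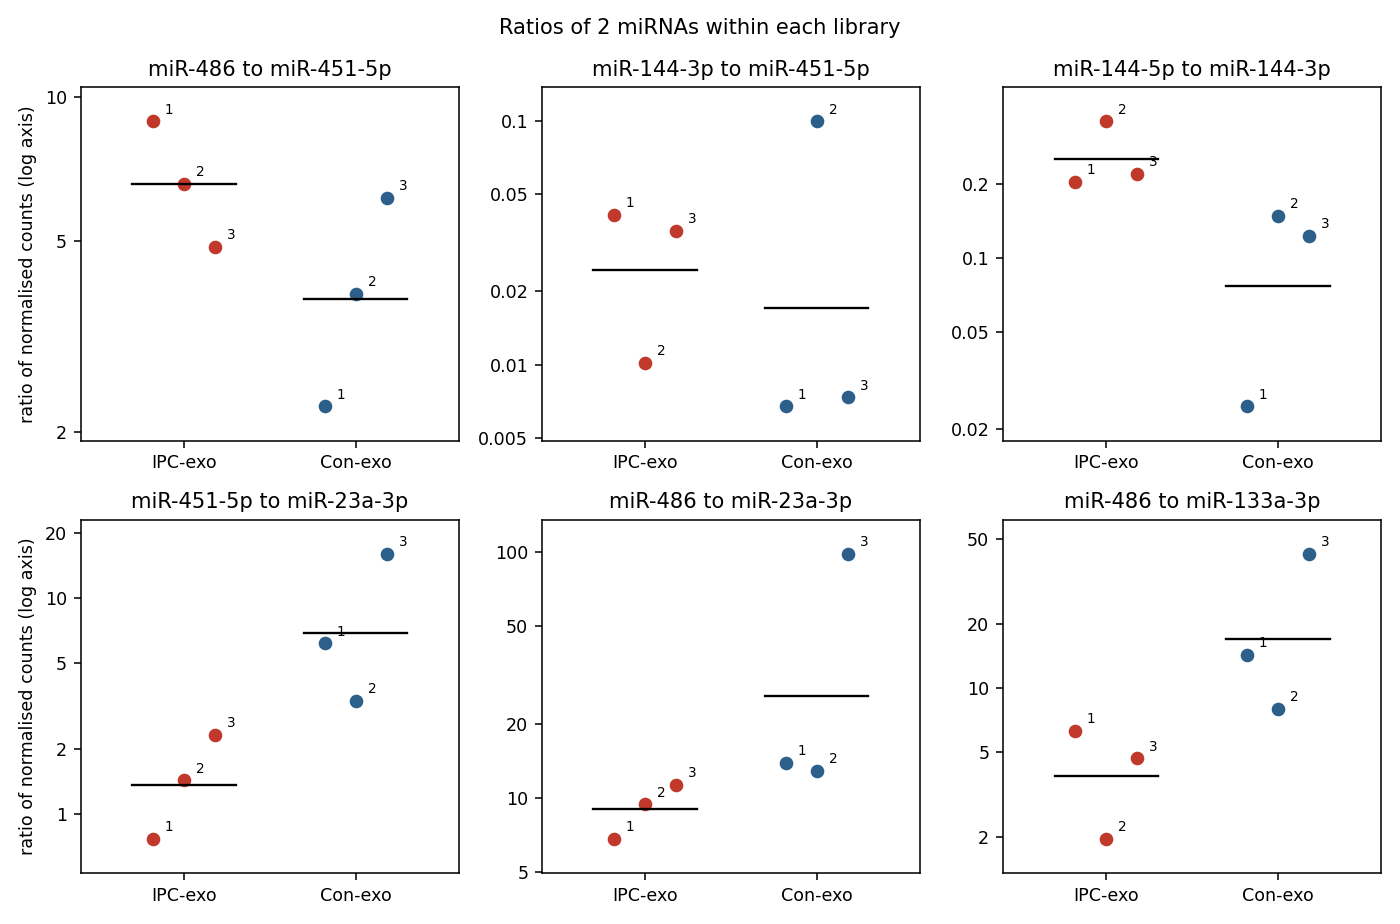
The 6 ratios of normalised counts (log axis, a separate scale for each ratio) in each library, IPC-exo in red and Con-exo in blue, with replicate numbers and the geometric mean of each group as a bar. For miR-451-5p to miR-23a-3p the IPC-exo libraries lie at 0.767 to 2.33, all below the controls at 3.33 to 15.9; for miR-486 to miR-451-5p the groups overlap.

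Against miR-23a-3p, a miRNA little found in red cells, both abundant members were lower in each IPC-exo library than in any control. miR-451-5p to miR-23a-3p was 0.767, 1.43 and 2.33 in IPC-exo replicates 1, 2 and 3, against 6.15, 3.33 and 15.9 in Con-exo replicates 1, 2 and 3. The log2 difference was -2.33, or 5.03 times lower by geometric means (two-sided exact permutation p = 0.1, adjusted p = 0.15). It was -1.73 without Con-exo replicate 3 and -2.85 without Con-exo replicate 2. miR-486 to miR-23a-3p was 6.83, 9.45 and 11.3 in IPC-exo replicates 1, 2 and 3, against 13.9, 12.9 and 98.1 in Con-exo replicates 1, 2 and 3. Its log2 difference of -1.53 (two-sided exact permutation p = 0.1, adjusted p = 0.15) was -0.57 without Con-exo replicate 3.

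The denominator moved as well. miR-23a-3p was at 1831, 1470 and 903 normalised counts in IPC-exo replicates 1, 2 and 3, against 690, 572 and 202 in Con-exo replicates 1, 2 and 3. Each IPC-exo library was above each control, as for 28 of the 226 miRNAs (12.4%), with 1.64 as its log2 fold change (SE 0.69; adjusted p = 0.35 by limma, 0.0352 before adjustment). Of the log2 difference in the miR-451-5p ratio, then, the numerator gave -0.69 and the denominator 1.64 on the deposited scale. Relative to the median of all 226 miRNAs they were -1.07 and 1.26. The split thus depends on how libraries are scaled, though the ratio does not. How much red-cell lysis each sample had was not tested, and the labels do not report it.

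miR-486 to miR-133a-3p was compared because miR-486 is also a muscle miRNA. The ratio was 6.28, 1.95 and 4.67 in IPC-exo replicates 1, 2 and 3, against 14.3, 7.98 and 42.6 in Con-exo replicates 1, 2 and 3, so each IPC-exo value was below each control (log2 difference -2.14, two-sided exact permutation p = 0.1, adjusted p = 0.15; -1.47 without Con-exo replicate 3). miR-133a-3p, a miRNA of heart and skeletal muscle that the series title names, had a log2 fold change of 2.25 (SE 0.69; limma, adjusted p = 0.341). The muscle list of 8 miRNAs had 7 tested, all with positive log2 fold changes between 2.16 and 4.49 and all with an unadjusted limma p under 0.05, where 8.85% of all tested miRNAs were higher. 0 of them passed after adjustment. The most abundant of them, miR-1-3p, a miRNA of heart and skeletal muscle, stood at 4.36 (SE 1.25) on that scale, and its groups overlapped. miR-486, at 0.11, lay below all 7. By normalised counts each IPC-exo library was above each control in 5 of the 7, a split found in 12.4% of all tested miRNAs. miR-133a-5p, 1 of the 5 and named after its values were seen, passed the abundance filter through IPC-exo libraries alone. It had 60, 140 and 20 counts in IPC-exo replicates 1, 2 and 3, against 0, 1 and 2 in Con-exo replicates 1, 2 and 3. Its direction and its split therefore followed from the filter and add nothing to the list. By share of counts miR-208a-3p, 1 of the 5 and named after its values were seen, overlapped (0.0337% in IPC-exo replicate 1, 0.0499% in Con-exo replicate 2).

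Other miRNAs that are abundant in red cells but also made elsewhere were taken from a list of 11, of which 10 were tested. 8 had positive and 2 negative log2 fold changes, where 142 of all 226 were positive, with a median of 0.84 against 0.38 over all 226 miRNAs and -0.023 over the 4 members. 0 of the 10 passed an unadjusted p of 0.05, where 10.6% of all tested miRNAs did. By normalised counts each IPC-exo library was above each control in 4 of the 10, a split found in 12.4% of all tested miRNAs. By share of counts miR-25-3p, miR-93-5p and miR-106b-5p of these overlapped. For miR-25-3p, IPC-exo replicate 2 was at 0.534% and Con-exo replicate 2 at 0.695%. miR-15b-5p stayed split, at 0.00590% or more in IPC-exo and 0.00525% or less in Con-exo, as did 8.41% of all tested miRNAs. It had only 2, 8 and 5 counts in Con-exo replicates 1, 2 and 3. Its exact 95% interval was 0.00430% to 0.00789% in IPC-exo replicate 1 and 0.00227% to 0.0103% in Con-exo replicate 2. At this depth those libraries could not be told apart for miR-15b-5p. miR-93-5p, miR-106b-5p and miR-15b-5p are named after their values were seen. miR-92a-3p, of the miR-17-92 cluster of dividing cells, was at 8004 ± 3378 normalised counts in IPC-exo and 4137 ± 3139 in Con-exo (SD, n = 3 each), with log2 fold change 1.13 (SE 0.70). miR-25-3p, encoded in Mcm7, was at 1784 ± 269 in IPC-exo and 1226 ± 206 in Con-exo, a log2 fold change of 0.54 (SE 0.58). This list took 2.61% to 6.17% of counts in the IPC-exo libraries and 1.25% to 3.26% in the Con-exo libraries, overlapping ranges.

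Markers of other cell types gave the following values, and their part in the results was not tested. Of 6 platelet miRNAs 6 were tested and 6 had positive log2 fold changes, where 142 of all 226 tested miRNAs did. The platelet median was 0.66, against 0.38 over all 226 (miR-24-3p 0.74, SE 0.60, and miR-191a-5p 0.14, SE 0.79). 1 of these platelet miRNAs, miR-223-3p, is also abundant in myeloid cells and is named after its values were seen. By normalised counts it had each IPC-exo library above each control. Its log2 fold change was 1.78 (SE 0.72, adjusted p = 0.35 by limma, 0.0296 before adjustment). By share of counts its groups overlapped, with IPC-exo replicate 1 at 0.191% and Con-exo replicate 2 at 0.192%. Of 5 leukocyte miRNAs 4 were tested and 3 were positive, with a median of 0.57 (miR-146a-5p 0.70, SE 0.66; miR-142-5p 1.14, SE 0.57). Of 3 liver miRNAs 3 were tested and 2 were positive, with a median of 0.11 (miR-122-5p -0.72, SE 0.63; miR-192-5p 0.11, SE 0.61). No marker of these lists or of the muscle list was at 0 in all libraries. Summed shares were 9.55% to 12.6% in IPC-exo and 4.31% to 11.0% in Con-exo for platelet, and 1.61% to 2.57% in IPC-exo and 0.685% to 2.01% in Con-exo for leukocyte miRNAs. They were 0.703% to 1.47% in IPC-exo and 1.04% to 2.29% in Con-exo for liver, and 1.43% to 8.46% in IPC-exo and 0.217% to 1.83% in Con-exo for muscle miRNAs.

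**Figure D3:**
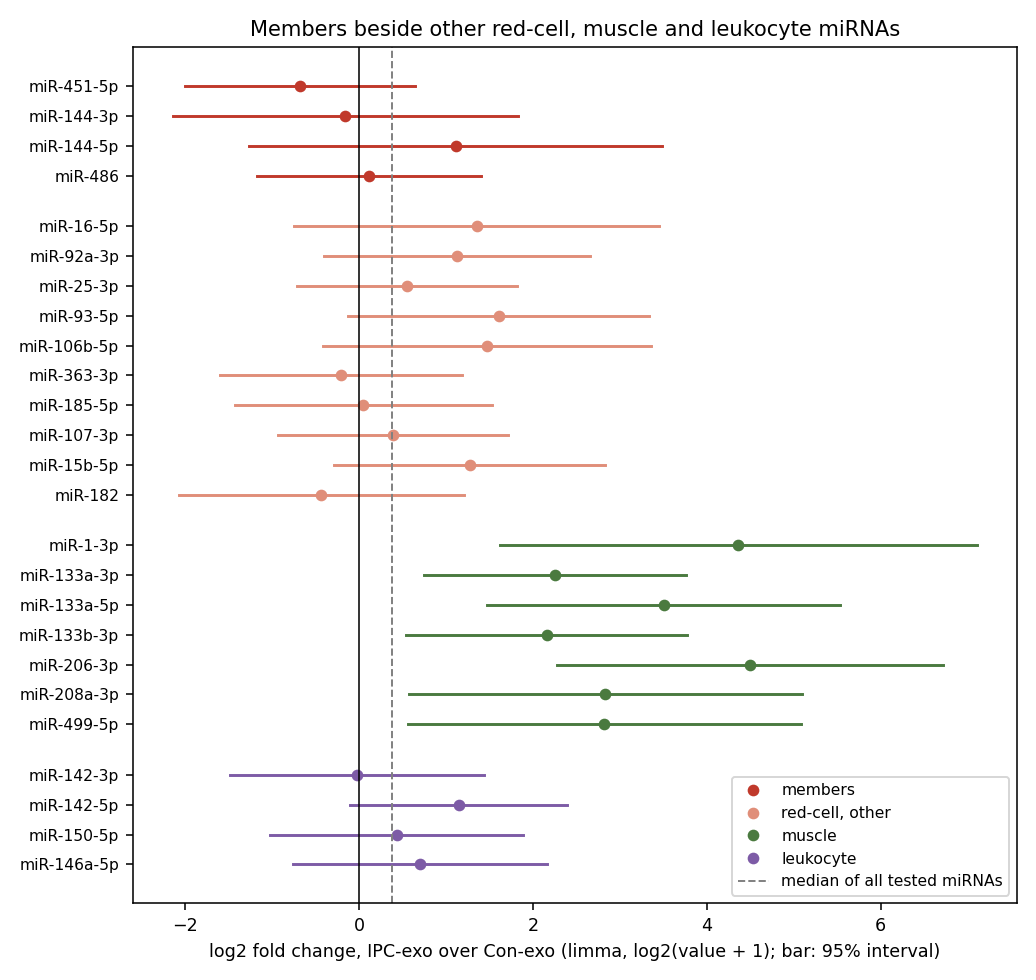
Log2 fold changes of IPC-exo over Con-exo (points) with limma's 95% intervals (bars) for the 4 members and the tested miRNAs of the other red-cell, muscle and leukocyte lists; the dashed line is the median of all 226 tested miRNAs, 0.38. The intervals of the 4 members all cross 0, and those of the 7 muscle miRNAs, from 2.16 to 4.49, do not, before adjustment for the number of tests. Of these 7, miR-133a-5p passed the abundance filter through IPC-exo libraries alone.

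Likeness of pattern was measured as the root mean square difference between log2 levels over the 6 libraries, each miRNA centred on its own mean. miR-505-3p (0.37), miR-501-3p (0.37) and miR-484 (0.41) were most like miR-451-5p. miR-151-3p (0.28), miR-125b-5p (0.31) and miR-99b-5p (0.31) were most like miR-486. Between members the distance was 0.63 for miR-451-5p and miR-486, 0.84 for the arms of miR-144, and 1.43 for miR-451-5p and miR-144-3p from one transcript. The nearest to miR-144-5p, looked up after its values were seen, was miR-181a-1-3p (0.25), and to miR-144-3p it was miR-26a-5p (0.47).

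Base composition moved with the differences between libraries, a comparison made after the data were seen. Of the 226 tested miRNAs 206 have a RefSeq sequence. The 40 with below 40% G and C had a median log2 fold change of 1.26, the 76 from 40% to below 50% had 0.66, and the 90 with 50% or more had -0.16 (Spearman -0.55 over 206 miRNAs from the same libraries, given as a description). Within the controls, Con-exo replicate 2 differed from the mean of the other 2 by a median of 1.93 in the lowest class and -0.49 in the highest. The miR-144 arms, at 30.0% and 30.4% G and C, were 2.82 and 3.49 log2 units above the other controls there, the second resting on counts of 0 and 1 in those controls. Other libraries also differed by class from the rest of their group. Medians in the lowest and highest class were -0.66 and 0.56 in IPC-exo replicate 1 and 0.66 and -0.68 in IPC-exo replicate 3. They were -0.40 and 0.42 in Con-exo replicate 1 and -1.07 and 0.30 in Con-exo replicate 3. IPC-exo replicate 2 showed little trend (0.032 and 0.12).

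miR-451-5p, at 36.4% G and C, went against its class between the groups, with -0.69 against 1.26, and in Con-exo replicate 2, with -0.95 against 1.93. Within IPC-exo it had the sign of its class median, at -0.58 in replicate 1, 0.29 in replicate 2 and 0.29 in replicate 3. In Con-exo replicates 1 and 3 it had the opposite sign, at 0.78 and 0.17. A line fitted on G and C content was removed from each library, and with it the library's mean level. limma then gave log2 fold changes of -1.88 for miR-451-5p, -1.74 for miR-144-3p and -0.45 for miR-144-5p. None passed (adjusted p = 0.443, 0.443 and 0.835), and limma called 0 of 206 after adjustment (9 higher and 10 lower before it). Each of these 3 values moved by more than its SE, and the sign of miR-144-5p turned. The median log2 fold change moved as well, from 0.38 over the 226 to -0.10 over the 206. Each move therefore holds this shift in level besides the part that follows G and C content. What makes the libraries differ by base composition was not tested, and no value could be computed for miR-486. miR-101a-3p and miR-101b-3p, which share bases 2 to 7 with miR-144-3p, hold 33.3% and 38.1% G and C. Their fold changes on the log2 scale were 1.23 for miR-101a-3p (SE 0.70) and 2.25 for miR-101b-3p (SE 0.79; limma, adjusted p = 0.35).

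**Figure D4:**
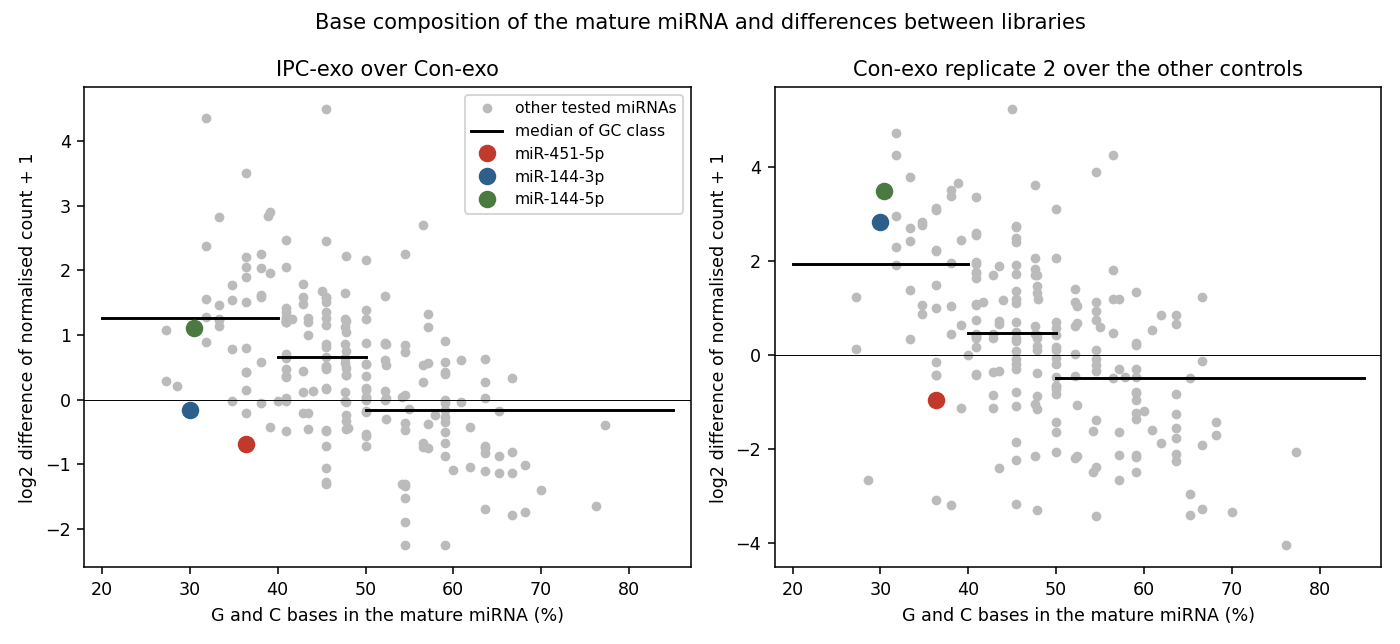
G and C content of the mature miRNA (%) against the log2 difference of IPC-exo over Con-exo (left) and of Con-exo replicate 2 over the mean of the other 2 controls (right), for the 206 tested miRNAs with a RefSeq sequence; black bars are the medians of 3 classes of G and C content and 3 members are coloured. The class medians fall from 1.26 to -0.16 (left) and from 1.93 to -0.49 (right) with rising content; the miR-144 arms lie above their class in the right panel and miR-451-5p lies below it in both.

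The authors' deposited table gives log2 fold changes of -0.74 for miR-451-5p, -0.66 for miR-144-3p, 0.11 for miR-144-5p and -0.0061 for miR-486. Their unadjusted p-values in the authors' deposited table are 0.297, 0.485, 0.908 and 0.993, so none of the 4 is among the 40 of 763 miRNAs (5.24%) with a p below 0.05 there. Only 480 of the 763 had a count in any library, so the percentage among detected miRNAs is higher than 5.24%. For the miR-144 arms the authors' log2 fold changes differ from limma's -0.16 and 1.11.

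**Figure D5:**
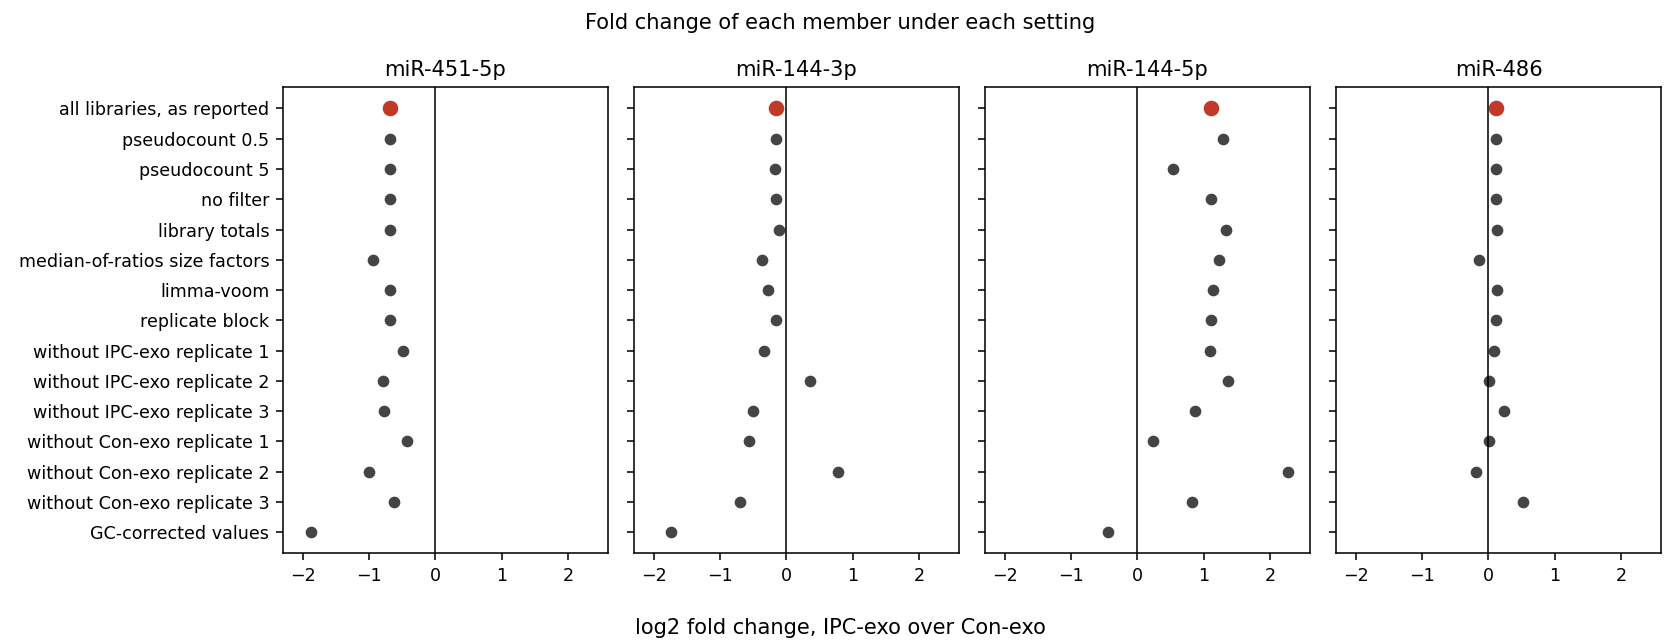
Log2 fold change of each member under each processing setting or with 1 library left out (grey) beside the value with all libraries as reported (red); miR-486 has no value corrected for G and C content. miR-451-5p stays between -1.88 and -0.43, miR-144-3p runs from -1.74 to 0.78 and miR-144-5p from -0.45 to 2.27, and miR-486 lies between -0.19 and 0.52.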

How the data were processed

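Per the labels' protocols, Trizol-extracted RNA (1 µg per sample) went into NEBNext small RNA libraries, sequenced from 1 end over 50 bp on a HiSeq. FastQC, BWA, edgeR and build rn6 are named in the submitters' processing notes; their versions and the trimming and annotation used were not given in the sources used here. For each miRNA and library the deposited value is a normalised signal, and 2 further deposited columns hold, per the file headers, the authors' log2 fold change and their p-value without adjustment.

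The values have the form of counts adjusted by quantiles to a common library size within each group (negative binomial dispersion 0.503), which was worked out from the values. Inverting this returned whole counts for 4578 of 4578 values (tolerance 0.01), and the deposited values were recovered from these counts to a relative difference of at most 1.22e-08. The fit to the controls used 4 parameters on 9 control values. Library size ratios of IPC-exo were then fitted to IPC-exo values, with the dispersion from the controls kept. A design for counts had been allowed for; since the values are not counts, limma 3.58.1 in R 4.3.3 (empirical Bayes, robust, with a trend) on log2(value + 1) was the main test, with group as its only term. On this scale changes of low miRNAs are understated. Tested miRNAs had at least 34.9 CPM in 3 libraries and 15 counts in all (226 of 480 with counts). Ratios and shares were compared by exact permutation over the 20 assignments of the 6 libraries. RNAfold 2.7.2 was run on RefSeq hairpins. The limma step and the inversion were tested on simulated data. Alternatives varied the pseudocount, filter, scaling, test, replicate block and libraries included; the correction for G and C content was added after seeing the data.

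The members and lists were chosen with earlier results of these data known. Named miRNAs were the members, the ratio partners, the 3 nearest to miR-451-5p and to miR-486, and the 2 most abundant per list; those named outside this rule are identified in the text. Intervals and floors (3 counts) cover counting error only, since the labels mention no molecular identifiers.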

Additional observations from a re-analysis of the deposited data

How the results depend on the processing

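The direction of miR-451-5p, and of all ratios except miR-144-3p to miR-451-5p, held in the alternatives run. So did that of miR-144-5p, except after the correction for G and C content and library mean (-0.45). With a library left out in turn, the log2 fold change was -0.70 to 0.78 for miR-144-3p and -0.19 to 0.52 for miR-486, the log2 difference of miR-144-3p to miR-451-5p -0.14 to 1.80, and the difference in the summed share -1.09 to 0.75 percentage points. Median-of-ratios scaling, which shifts the median of all 226 miRNAs by -0.19, put miR-486 at -0.14. The number of miRNAs called was 3 without the abundance filter, 2 with a replicate block, and 0 to 38 with a library left out (38 without Con-exo replicate 2, 0 in the other 5). Same-numbered samples did not deviate together (correlations 0.13, -0.18 and -0.51 over the 226 miRNAs), and the replicate block changed no call for a member. For the ratios and the summed share the block cannot decide this, since no p below 0.05 was possible with or without it. The exact permutation p cannot go below 0.1 without the block. With the block it was 0.25 even for ratios whose groups were fully apart, such as miR-451-5p to miR-23a-3p. The cause of the changes in direction and in the number called was not tested. Control libraries of 111048 to 152343 counts leave the miR-144 arms at 0 to 23 and 9 to 153 counts each.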
